A study of Rattus norvegicus with 2 samples.

Results

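The 10 genes Gfap, Aqp4, Aldoc, Apoe, Aldh1l1, S100b, Gja1, Gjb6, Sox9 and Fgfr3 are used as markers of astrocytes, the glial cells that support neurons and wrap the vessels of the brain. They were picked by name, with earlier results of these data known. They were found through the RefSeq transcript accession that the scanner files give for each probe. All 10 were found among 16575 genes that could be named in this way. They were read by 14 probes in 59 spots, and each of these probes was well above background on both arrays. The tissue was the nucleus tractus solitarii (NTS), the relay in the dorsal medulla where cardiovascular and visceral sensory fibres end. The rats were of the spontaneously hypertensive strain (SHR), were 9 weeks old and had free access to food and water, and the labels give no other treatment. There were 2 groups, female SHR and male SHR. Each group was 1 array hybridised with RNA pooled from 5 rats, 100 ng from each. Both groups were SHR, and no normotensive strain is among the samples analysed here.

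Astrocytes hold glutamate, potassium and water in balance around synapses, store and break down fuel, and couple into networks through gap junctions. In the NTS they lie around the endings of vagal and glossopharyngeal afferents and respond to them with calcium signals. The intermediate filament protein encoded by Gfap is the usual histological marker, and its amount is known to increase when astrocytes react to injury. The tissue also holds neurons, oligodendrocytes, microglia and vessels. In such bulk RNA, fewer astrocytes and less RNA per astrocyte cannot be told apart.

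With 1 array per sex there is no replicate, so no test was made, and each difference below compares 2 pools. Levels are given as scaled signal, that is, with the signal at the 75th percentile of an array set to 100. A scaled signal can be compared between the 2 arrays for the same probe but not between probes. Differences are female minus male on the log2 scale, and folds are the brighter array over the dimmer one.

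None of the 10 astrocyte markers reached 1.5-fold between the female and male pools, and none reached 1.2-fold. Of all 13424 named genes measured on both arrays, 2.29% reached 1.5-fold and 11.8% reached 1.2-fold in either direction. In the brightest 25% of these genes, which held 8 of the 10 markers, the shares were 0.417% and 2.00%. For 10 genes a count of 0 is near those background shares and is not a result about the markers. The differences ran from -0.20 for Gfap to 0.21 for Gjb6. The median over the markers was -0.01, against 0.02 over all measured genes and -0.00469 over the brightest 25%. By sign, 5 markers were higher in the female pool and 5 in the male pool. That split depended on scaling. It was 3 to 7 both with median scaling and with quantile normalization, and 7 to 3 when the spike-in controls set the centre.

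**Figure D1:**
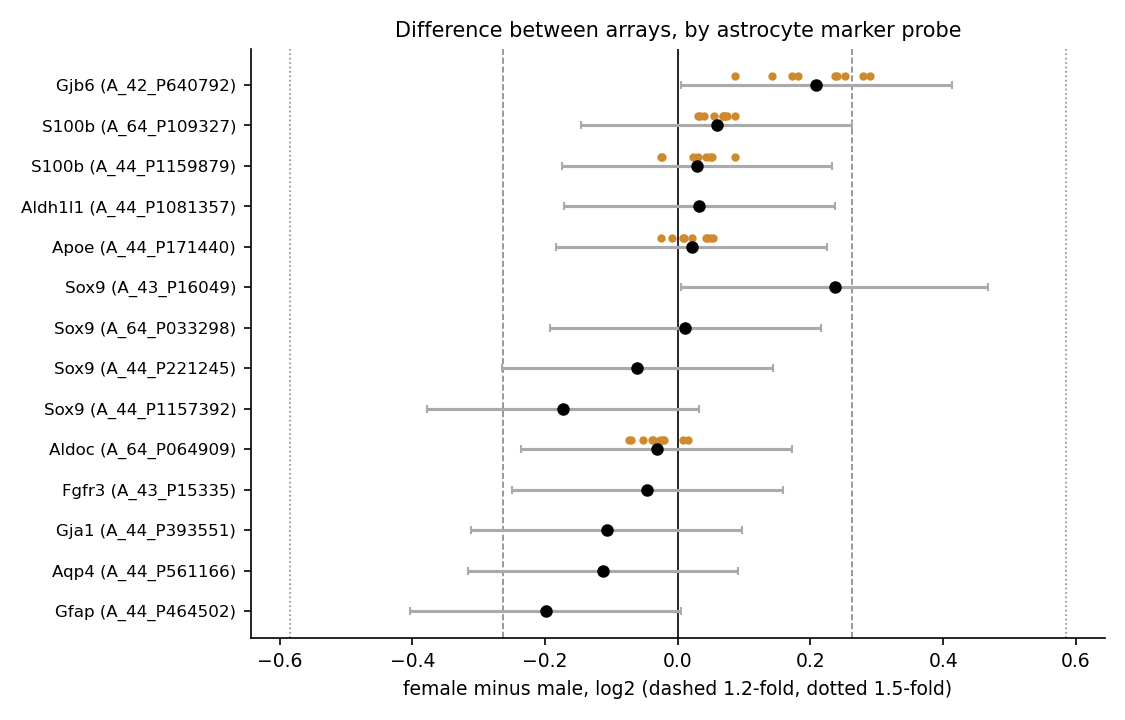
Difference between arrays for each of the 14 astrocyte marker probes (x axis, female minus male, log2), ordered by gene from the highest at the top to the lowest at the bottom. Black points are probe values, grey bars the scanner's own error of the difference, and orange points single spots of repeated probes. Every probe lies inside the dashed lines at 1.2-fold, and the grey bars of all but 2 probes cross 0.

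The scanner files attach an error to each spot, which was close to 10% of the signal. For a probe with 1 spot per array this error came to 0.20 on the log2 scale for the difference between arrays. Repeated spots were tighter. Over 1126 probes in the brightest 25% of the signal range with at least 8 spots, the SD of the spot differences had a median of 0.04. Both figures describe spots on these 2 arrays and leave out animals, dissection, labelling and hybridisation. Of the 10 genes, 4 had probes with 10 spots each, and the other 6 were read from single spots.

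Gfap, the intermediate filament gene of astrocytes, was the marker that stood lowest in the female pool. Its 1 spot gave a scaled signal of 60.8 in the female pool and 69.8 in the male pool. That is 1.15-fold higher in the male pool, or -0.20 on the log2 scale, with a scanner error of 0.20. Among the 3356 genes of the brightest 25%, 4.20% differed by more in either direction, and among all measured genes 18.8%. Gfap kept its direction under all 13 other processing settings, between -0.23 with median scaling and -0.13 with spike-in centring. For a gene read by 1 spot, the settings for filters, probe summaries and accessions cannot change the value. The authors' table holds the same intensities divided by a constant, so only other background corrections and scalings could move Gfap. It had no second probe and no repeated spot against which this value could be set.

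The markers of the astrocyte membrane were the water channel gene Aqp4 and the gap junction genes Gja1 (connexin 43) and Gjb6 (connexin 30). Aqp4 makes the channel that sits in the endfeet around vessels. It gave 1423 in the female pool and 1538 in the male pool, a 1.08-fold difference (-0.11). Gja1 encodes the main connexin of astrocyte networks. It gave 358 in the female pool and 386 in the male pool, also 1.08-fold (-0.11). Both were lower in the female pool by less than the scanner error of 0.20.

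Gjb6 is the marker that stood highest in the female pool. Connexin 30 is the second gap junction protein of astrocytes and is richer in grey matter and around vessels. Its probe had 10 spots on each array, and 1 position was left out for an outlier flag. The remaining 9 ran from 169 to 187 with a median of 177 in the female pool, and from 148 to 159 with a median of 157 in the male pool. The spots of the arrays did not overlap, and all 9 positions were brighter in the female pool. The difference was 0.21 on the log2 scale with an SD of 0.07 over the spots, which is 1.16-fold. The scanner error of the difference, taken per spot position, was 0.20 for this probe too. Spots that did not overlap were seen in 13.1% of the 834 named probes that had at least 8 spots and were above background on both arrays, and in 4.68% with the female side brighter. Gjb6 was the only 1 of the 5 repeated probes of the markers with this separation. Of the brightest 25% of genes, 3.67% differed by more in either direction, and of all measured genes 17.6%. Gjb6 and Gfap are the extremes of the 10 markers, so such shares are not those of genes picked beforehand.

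**Figure D2:**
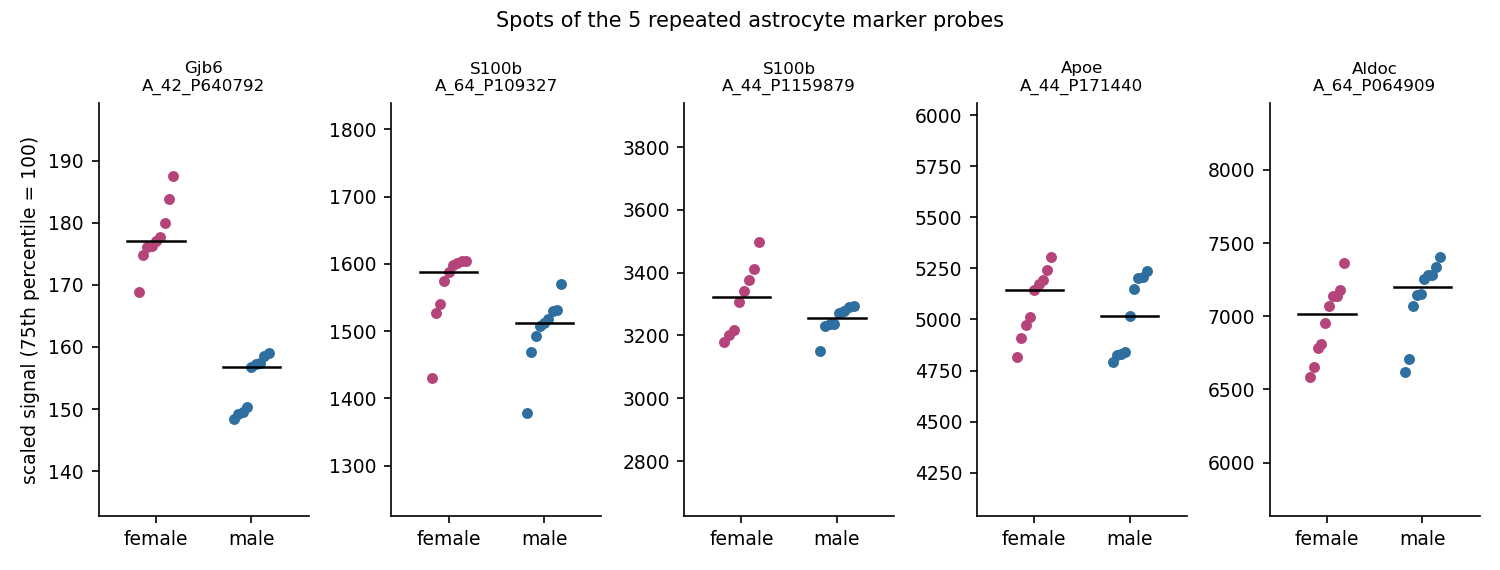
Scaled signal (y axis, 75th percentile of each array at 100) of single spots of the 5 repeated astrocyte marker probes on the female (left) and male (right) array, without outlier-flagged spots, with black lines at the medians. Each panel spans 20% above and below the mean of its spots and none starts at 0. Female and male spots are apart for Gjb6, with the lowest female spot at 169 and the highest male spot at 159, and overlap in the other panels.

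The 2 astrocyte connexins lay on opposite sides. The Gjb6 difference minus the Gja1 difference was 0.32 on the log2 scale, and a common shift of an array leaves this value as it is. The Gja1 part rests on 1 spot and was smaller than its scanner error of 0.20, so its side is uncertain. Another connexin that astrocytes can make, connexin 26, is encoded by Gjb2, which is named here after its values were seen. Gjb2 gave 44.6 in the female pool and 44.2 in the male pool, within 1.01-fold. The sequences before the start sites of Gjb6 and Gja1 are shown because these genes went opposite ways, and that of Gfap because it stood lowest. They are the 250 bases before a start site in RefSeq on GRCr8, 5′ to 3′. Gjb6 has 2 start sites in that table, and the one farther upstream is shown. Its window still lies inside the full annotated span of the Gjb6 gene. The Gja1 window overlaps the start of the annotated span of Gja1.
Gjb6, chr15:35410139-35410388, minus strand: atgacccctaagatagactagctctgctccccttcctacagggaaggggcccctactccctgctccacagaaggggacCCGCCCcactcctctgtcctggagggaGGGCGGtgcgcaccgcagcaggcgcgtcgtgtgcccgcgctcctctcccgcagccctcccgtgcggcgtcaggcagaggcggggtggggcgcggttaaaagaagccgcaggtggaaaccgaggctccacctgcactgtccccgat
Gja1, chr20:36302314-36302563, plus strand: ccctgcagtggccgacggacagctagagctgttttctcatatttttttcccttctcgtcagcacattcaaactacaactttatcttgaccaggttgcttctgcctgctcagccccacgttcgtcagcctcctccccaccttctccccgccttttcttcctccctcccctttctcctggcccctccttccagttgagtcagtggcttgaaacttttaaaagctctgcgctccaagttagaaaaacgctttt
Gfap, chr10:88361662-88361911, minus strand: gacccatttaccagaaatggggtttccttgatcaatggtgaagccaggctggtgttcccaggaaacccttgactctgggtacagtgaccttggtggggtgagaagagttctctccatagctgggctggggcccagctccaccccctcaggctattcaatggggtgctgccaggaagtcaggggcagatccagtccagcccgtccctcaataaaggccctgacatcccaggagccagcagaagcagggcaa

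Capitals in these sequences mark matches on either strand to 5 short motifs: the TATA box (TATAAA), the CCAAT box (CCAAT), the half-site of the nuclear factor I proteins (TTGGC), the core bound by SOX proteins (ACAAT) and the GC box (GGGCGG). The CCAAT box and the half-site can overlap in the letters GCCAAT. Gjb6 has 2 GC boxes in this window, whereas Gja1 and Gfap hold none of the 5 motifs as spelled here. Of 33469 windows of the same length before rat start sites, 30.5% hold a GC box, 34.0% a CCAAT box, 40.3% the half-site, 30.0% the SOX core and 12.9% a TATA box. The table has 13 windows for 9 of the 10 markers. Of these windows, 8 hold a GC box, 6 the half-site, 5 a CCAAT box, 2 the SOX core and 0 a TATA box. Among them, 2 windows of Apoe overlap, and the GC boxes and half-site they share are counted in both. The letters describe the windows and were not set against the differences between the sexes.

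The markers of astrocyte metabolism were Aldoc and Aldh1l1. Aldoc encodes the brain form of the glycolytic enzyme aldolase. Its 10 spots ran from 6586 to 7362 with a median of 7013 in the female pool, and from 6617 to 7402 with a median of 7202 in the male pool. The ranges overlapped almost fully, and 2 of the 10 positions were brighter in the female pool. The difference of -0.03 (SD 0.03 over the spots, 1.02-fold) was about as large as the spread of the spots. It was -0.15 after quantile normalization and 0.04 with spike-in centring, so its direction is not settled. Aldh1l1, the folate enzyme whose promoter is widely used to label astrocytes, gave 42.2 in the female pool and 41.2 in the male pool, 1.02-fold (0.03).

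The markers that act outside the cell or bind calcium were Apoe and S100b. Apoe encodes the lipid carrier apolipoprotein E, which microglia also make. Its 9 spots without a flag ran from 4819 to 5305 with a median of 5146 in the female pool, and from 4790 to 5239 with a median of 5018 in the male pool. The ranges overlapped, with 7 of the 9 positions brighter in the female pool. The difference was 0.02 (SD 0.03, 1.01-fold), and it turned to -0.01 with median scaling.

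S100b encodes a calcium-binding protein that oligodendrocytes also express, and was the marker with 2 repeated probes. Probe A_64_P109327 ran from 1430 to 1604 with a median of 1588 in the female pool, and from 1378 to 1570 with a median of 1512 in the male pool. All 9 of its positions were brighter in the female pool although the ranges overlapped. Its difference was 0.06 (SD 0.02, 1.04-fold). Probe A_44_P1159879 ran from 3181 to 3497 with a median of 3324 in the female pool, and from 3152 to 3293 with a median of 3254 in the male pool. The second probe had 6 of 8 positions brighter in the female pool and a difference of 0.03 (SD 0.04, 1.02-fold). Both probes thus pointed the same way by less than 1.05-fold.

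The regulators among the markers were Sox9 and Fgfr3. Sox9 encodes a transcription factor that is needed for the switch to glial fate and stays on in mature astrocytes. It had 4 probes of 1 spot each, and they did not go the same way. The brightest, A_44_P221245, gave 64.0 in the female pool and 66.7 in the male pool (-0.06). Probe A_64_P033298 gave 51.0 in the female pool and 50.6 in the male pool (0.01). The dimmer A_44_P1157392 gave 7.77 in the female pool and 8.76 in the male pool (-0.17), and the dimmest, A_43_P16049, gave 1.84 in the female pool and 1.56 in the male pool (0.24). The mean over the probes was 0.00336, and the brightest probe alone was lower in the female pool. The dimmest probe lies in the dimmest 25% of the signal range, where the median SD of repeated spots was 0.19. Fgfr3, a receptor for fibroblast growth factors found on astrocytes and their precursors, gave 77.6 in the female pool and 80.2 in the male pool, 1.03-fold (-0.05).

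**Figure D3:**
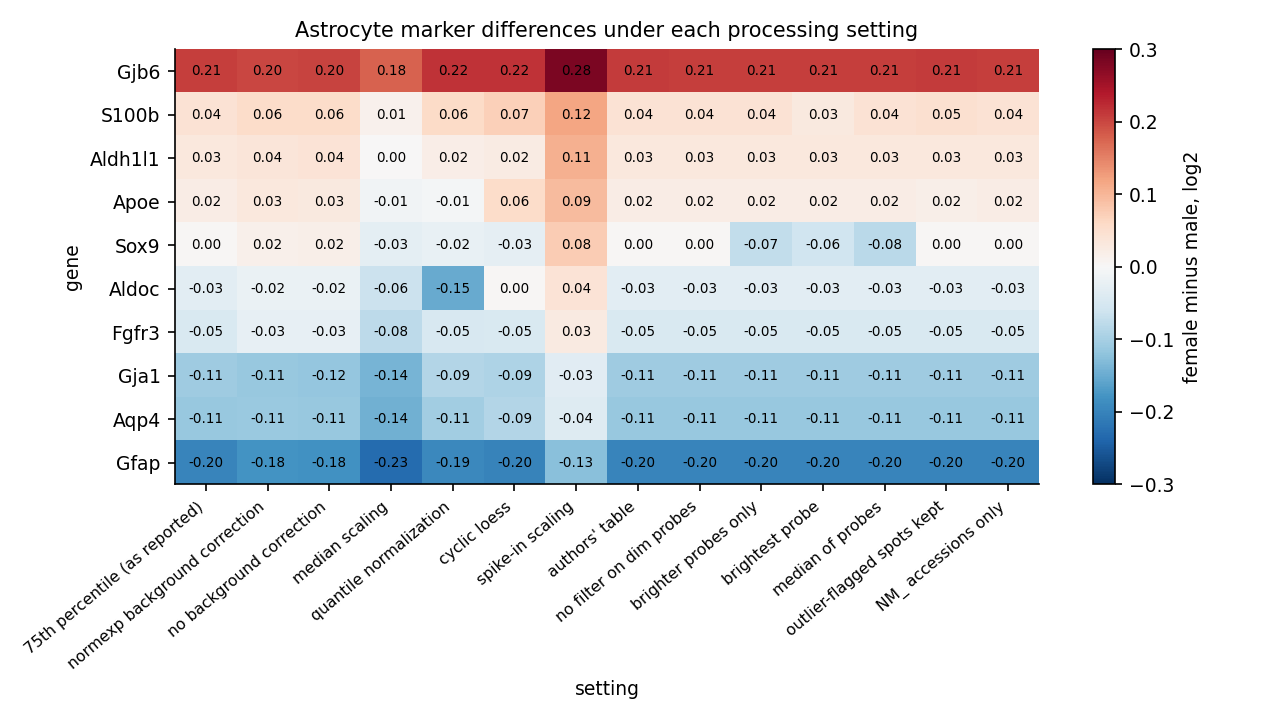
Difference of each astrocyte marker (rows, female minus male, log2, coloured from blue at -0.3 to red at 0.3) under the reported setting and 13 other settings (columns). Gjb6 stays above 0 and Gfap, Aqp4 and Gja1 stay below 0 in every column, while Sox9 changes sign in 6 of the 13 other columns.

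Beyond the 10 markers, 8 further lists of astrocyte genes and their partners held 153 measured genes, each counted once and without the markers. Of these, 4 reached 1.5-fold, 2 in each direction, which is 2.61% against 2.29% of all measured genes. At 1.2-fold there were 8 higher in the female pool and 9 higher in the male pool, or 11.1% against 11.8%. Their median was -0.00677. Shares near those of all genes are no result about astrocyte genes.

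Of 28 genes for transport and metabolism, which include the glutamate transporters, glutamine synthetase and the potassium channel of astrocytes, the median was 0.00111, with 14 on each side. The metallothionein gene Mt1 was highest at 277 in the female pool and 229.7 in the male pool (0.27, 1.21-fold). Dio2, which activates thyroid hormone, was lowest at 0.518 in the female pool and 0.819 in the male pool (-0.66, 1.58-fold). Dio2 lay in the dimmest 25% of the signal range and stood at -0.12 without background correction. Of 24 membrane and secreted genes (median 0.02) none reached 1.5-fold. There the tissue factor gene F3 gave 45.8 in the female pool and 39.7 in the male pool (0.20), and the secreted protease gene Htra1 53.0 in the female pool and 68.0 in the male pool (-0.36).

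In the list of transcription factors and growth signals, 24 genes had a median of -0.05 and none reached 1.5-fold. The Notch targets Hes1 and Hes5 were its extremes. Hes1 gave 2.39 in the female pool and 1.89 in the male pool (0.34), and Hes5 gave 3.45 in the female pool and 4.83 in the male pool (-0.49). In the list of genes known to increase in reactive astrocytes, 24 had a median of 0.05, with 14 higher in the female pool and 10 in the male pool. Hspb1, a small heat shock protein gene, gave 69.5 in the female pool and 126 in the male pool (-0.86, 1.82-fold) and was the 1 gene of that list past 1.5-fold. At the other end, Aspg gave 5.50 in the female pool and 3.82 in the male pool (0.53, 1.44-fold). The list had a median of -0.04 at its lowest over the other settings, so no direction is given for it.

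The list built around the aquaporin-4 anchoring complex had 9 measured genes and a median of 0.10. Its extreme was Trpv4, an osmosensitive calcium channel gene, at 16.9 in the female pool and 3.27 in the male pool (2.37, 5.18-fold), and at 1.75 with normexp background correction. The other 8 were within 1.2-fold, and Dag1, which encodes dystroglycan and links the complex to the basal lamina, was lowest at 16.05 in the female pool and 17.8 in the male pool (-0.15). Among the paralogs of the markers (20 genes, median -0.06) the water channel gene Aqp1 was 30.6 in the female pool and 13.5 in the male pool (1.18, 2.26-fold). Its 2 probes stood at 0.61 and 1.75. The neurofilament gene Nefl was lowest of the paralogs at 139 in the female pool and 188 in the male pool (-0.44, 1.35-fold). Aqp1 belongs to the choroid plexus list too, and the values of that list are given below. Their part in the Trpv4 and Aqp1 values was not tested.

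Of 12 further connexin, pannexin and junction genes the median was -0.00296 and none reached 1.5-fold. Gja5, a vessel connexin gene that was dim here, gave 0.620 in the female pool and 0.455 in the male pool (0.45). With normexp background correction Gja5 stood at 0.02. Of 19 genes for apolipoprotein E and lipid handling (median -0.01) none reached 1.5-fold. Vldlr, a receptor for lipoproteins, gave 8.19 in the female pool and 7.47 in the male pool (0.13), with its 2 probes at 0.03 and 0.23. The lipocalin gene Apod gave 185 in the female pool and 225 in the male pool (-0.28).

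**Figure D4:**
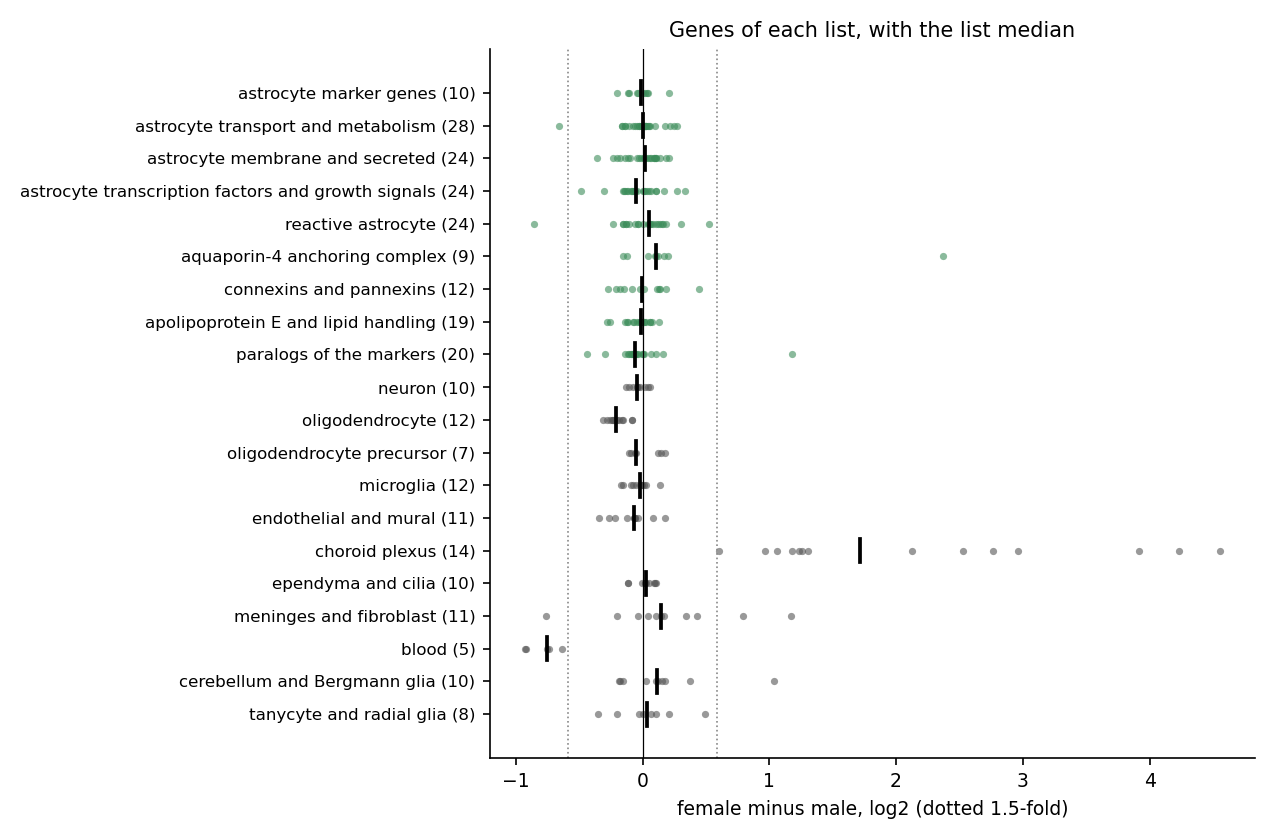
Difference (x axis, female minus male, log2) of each measured gene of the astrocyte lists (green) and of marker lists of other cell types (grey), with the list median as a black line and the number of measured genes in brackets. The 10 astrocyte markers lie within 1.2-fold around 0, the 14 choroid plexus genes all lie past 1.5-fold on the female side and the 5 blood genes all lie past 1.5-fold on the male side.

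Markers of other cells in the tissue were read in the same way. Of 12 oligodendrocyte markers, all 12 were lower in the female pool, with a median of -0.21, where the astrocyte markers had 5 of 10 and -0.01. The difference between these lists was not tested. Medians were -0.04 for 10 neuron markers, -0.05 for 7 markers of oligodendrocyte precursors, -0.02 for 12 microglial and -0.06 for 11 endothelial and mural markers. No gene of these 5 lists reached 1.5-fold. Ependymal and cilia genes (10, median 0.02) and genes of tanycytes and radial glia (8, median 0.03) likewise had none past 1.5-fold. The list for cerebellum and Bergmann glia, the astrocytes of the cerebellar cortex, had a median of 0.12 over 10 genes. Its 1 gene past 1.5-fold was the dim Fat2, at 0.972 in the female pool and 0.475 in the male pool (1.03, but 0.20 with normexp).

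Lists of the choroid plexus, which borders the NTS, and of blood stood apart from those of the other cells. The lists were chosen with earlier results of these data known, so their counts are a description only. All 14 measured choroid plexus markers reached 1.5-fold in the direction of the female pool, with a median of 1.72 and a summed signal of 10022 in the female pool and 887 in the male pool. Most of that sum was Ttr, the most abundant product of the choroid plexus, at 9325 in the female pool and 617 in the male pool. Such sums add signals of different probes, which cannot be compared with each other, so they are not amounts of RNA. The other 13 genes summed to 697 in the female pool and 270.1 in the male pool. Kcnj13 was 23.5-fold and Sostdc1 18.8-fold higher. With normexp background correction the median was 1.04 and 12 of the 14 reached 1.5-fold, while Kcnj13 stood at 2.50 and Sostdc1 at 3.42 on the log2 scale. The 11 markers of meninges and fibroblasts had a median of 0.14, with Slc47a1 (2.25-fold) and Igf2 (1.74-fold) higher in the female pool and Col1a2 (1.70-fold) in the male pool. The 5 measured genes of blood cells all reached 1.5-fold in the direction of the male pool (median -0.75), among them Slc4a1 (1.90-fold), Ahsp (1.89-fold) and Hbb (1.68-fold). With normexp 3 of these 5 did (median -0.63), and Slc4a1 stood at -0.32 and Slc47a1 at 0.40. Connexin 30 is also known from the meninges and ependyma. The Gjb6 difference of 0.21 stood on the array with the higher choroid plexus and meningeal medians. The ependymal median was only 0.02. The summed meningeal signal was 530 in the female pool and 701 in the male pool. Without its brightest gene it was 253 in the female pool and 232 in the male pool. The part of these tissues in the Gjb6 difference was not tested.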

How the data were processed

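The members and gene lists were chosen with earlier results of these data known. The deposited scanner files hold 1-colour (Cy3) spot intensities on a linear scale, and the processed intensity is already background-corrected, per the file headers. These name Agilent Feature Extraction 11.5.1.1, while the submitters' processing notes name version 9.1. The authors' deposited value table holds the same intensities divided by a constant, 23.4 for the female and 22.8 for the male array. Both arrays were on 1 slide and in 1 scan, per the file headers. The 75th percentile of the processed intensity was 2344.5 for the female and 2277 for the male array, 82.3% and 80.1% of 58717 spots were well above background, and 0 were saturated.

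Values are log2 processed intensity relative to the 75th percentile of the array. Control spots and spots with an outlier flag on either array (363 female, 284 male) were left out, which removed 5 of the 59 marker spots. Spots of a probe were averaged, and a gene is the mean of its probes well above background on both arrays. Accessions were matched without versions to RefSeq (GRCr8), which named 21102 of 45598 probes. Accessions shared by several genes were not used. The array design uses an older assembly (rn4), so gene coordinates are not given, and those of the sequences are RefSeq's own. The headers carry no probe sequence.

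A gene counted as different past 1.5-fold. No p-value is given, since the number of arrays sets the precision. Named genes were the 10 markers, the highest and lowest gene of each other astrocyte list with up to 4 past 1.5-fold, and up to 3 past 1.5-fold of each cell marker list. One gene this rule names is not reported here. Alternatives were normexp correction (offset 50), no correction, 4 other scalings, the authors' table, other filters, summaries and folds. The scripts were tested on simulated arrays. Python 3.11.15, numpy 2.4.6, pandas 2.3.3 and, in R 4.3.3, limma 3.58.1 were used.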

Additional observations from a re-analysis of the deposited data

How the results depend on the processing

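No paired analysis was possible because the design has a single array for either sex, without a test. Leaving out a replicate or using slide as a block could not be done for the same reason. In each of the 13 other settings, and at folds of 1.2 and 2, the count of markers past the threshold was 0, except that Gjb6 reached 1.22-fold with spike-in centring. The marker median of -0.01 became 0.0593 with spike-in centring, which moves all genes by 0.07, and lay between -0.05 and -0.00107 in the other 12. Of 130 marker values in the other settings, 119 kept their sign. Gfap, Aqp4, Aldh1l1, S100b, Gja1 and Gjb6 kept it in all 13, Fgfr3 in 12, Aldoc and Apoe in 11 and Sox9 in 7. These counts overstate stability, because probe filters, probe summaries and accession choice cannot change a marker read by 1 probe. The authors' table also repeats the reported scaling. Aldh1l1 kept its sign at only 0.000724 with median scaling. The spread between the highest and the lowest probe was 0.44 on the log2 scale and at least 0.39 elsewhere. In the other astrocyte lists 4 genes were past 1.5-fold, 3 to 5 in 12 settings and 7 without a filter on dim probes. Over all genes the counts past 1.5-fold were 201 higher in the female and 107 higher in the male pool. They were 37 and 33 with normexp, 50 and 38 without background correction, 36 and 40 in the brighter probes, 137 and 157 after quantile normalization, 271 and 83 with spike-in centring, and 1134 and 513 without a filter. The scanner error of 0.20 for single spots limits what can be read from the 6 markers without repeats.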
